A study of Homo sapiens with 15 samples.

Results

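The response of A549 cells to all-trans retinoic acid (ATRA) at the ordinary oxygen tension was examined in 7 of the 15 RNA-seq libraries deposited for this series, chosen by their labels alone: 3 libraries from cells given ATRA and 4 from cells without it. A549 is an established line of human lung adenocarcinoma cells. All 7 libraries came from wild-type A549 cells kept for 72 hours in normoxia (21% oxygen). The ATRA cells had first received 1e-05 mM ATRA, which is 10 nM, dissolved in ethanol, as a pretreatment of 24 hours. The study describes the oxygen exposure itself as carried out with or without ATRA. Whether ATRA stayed in the medium during the 72 hours is therefore not settled here. Of the 4 libraries without ATRA, 2 came from cells given the ethanol vehicle for the same 24 hours and 2 from cells whose labels name normoxia alone, called no vehicle here. The libraries are numbered within each group in the order of the labels' library numbers, and values are given in that order, as ATRA 1 to 3, vehicle 1 and 2, and no vehicle 1 and 2. The labels do not say that the libraries of a group came from separate cultures, so the p-values measure the spread between these libraries, which may be technical. A line of tumour cells limits what the values say about normal alveolar epithelium.

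ATRA is the active form of vitamin A. It enters the nucleus and binds retinoic acid receptors, which sit on DNA as partners of retinoid X receptors at repeated short motifs, release corepressors when ATRA binds and then recruit coactivators. Among the genes that this switch raises in many cells are those that limit the signal itself: CYP26 enzymes, which oxidise ATRA, and DHRS3, which turns its precursor retinaldehyde back into retinol. In the lung, retinoid signalling is known for its part in airway branching and in the formation and upkeep of alveoli.

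Total RNA was sequenced from stranded libraries, and the values start from whole-number read counts per gene symbol. The 7 libraries held between 2843227 and 5450688 counts on genes, so that 3 counts, the fewest taken as detection, correspond to between 0.55 and 1.06 CPM (counts per library, brought to the same total). This floor and the counts cover counting error only. Normalized counts are given as CPM after TMM scaling, and groups as mean ± SD. In bulk RNA, fewer cells of a kind and less RNA per cell cannot be told apart. On the first principal component, which held 33.6% of the variance, ATRA 2 lay at -60.21 and the other 6 libraries between -2.905 and 23.51. Of 10 markers of A549 identity, 9 were measured, with a summed level of 16364 to 18936 CPM with ATRA and 17552 to 19682 CPM without it, although the epithelial adhesion gene EPCAM reached no more than 4.80 CPM. CDKN2A, which is deleted in this line, had 0 counts in every library. Surfactant genes, which define alveolar type II cells, were at or near 0: SFTPA1 and SFTPA2 had no count in any library, and SFTPB, SFTPC and SFTPD had at most 2, 3 and 5 counts in any 1 library.

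ATRA changed 360 of 13802 genes tested at an adjusted p under 0.05 by edgeR's quasi-likelihood test, the threshold used below. This is 2.61% of the genes, with 248 (1.80%) higher and 112 (0.811%) lower. At least a 2-fold change was seen for 108 higher genes (0.782%) and 23 lower genes (0.167%), and 1800 genes (13.0%) had an unadjusted p under 0.05. The median log2 fold change was 0.92 over the higher genes and -0.68 over the lower ones, against 7e-04 over all genes tested. In 355 of the 360 genes, the 3 ATRA libraries all lay on 1 side of the 4 libraries without ATRA, which was also true of 13.2% of all genes tested. Only genes without overlap entered the choice of the 12 higher and 12 lower genes with the smallest p. Their separation below was fixed by that choice. The higher ones were TFPI2, CYP26B1, IFFO2, IGFBP3, TNFAIP2, DHRS3, GPRC5B, TRIM31, PTGES, LXN, STRA6 and CAVIN2. Among the lower ones were UNC13A, ST6GAL2, NAMPT, KYNU, DKK1, PEG10, TRIB3, HPGD, RSPO3, PTGR1 and HMGCS1. Leaving out ATRA 1 lowered the counts to 148 higher and 56 lower genes. The lower count also fell to 62 without vehicle 1, 60 without vehicle 2 and 67 without no vehicle 2, while without ATRA 2, the library that lay apart, 346 genes were called in all. Higher and lower genes numbered 119 and 45 with vehicle alone as control, 123 and 44 with no vehicle alone, and 93 and 48 in a fit of 14 libraries that added 7 from hyperoxia. That fit estimated the spread over all 14 libraries, including a hyperoxia library that stood apart, described below.

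The largest rise among all genes called was that of CYP26B1, a cytochrome P450 that breaks down ATRA (chromosome 2 of GRCh38.p14, 72129238 to 72147862, reverse strand). Its normalized count was 860.2, 539 and 669 CPM with ATRA, 41.1 and 62.0 CPM with vehicle and 39.3 and 51.3 CPM with no vehicle. The lowest ATRA library was several times above every library without ATRA, and the libraries with and without vehicle overlapped. The mean rose from 48.4 ± 10.5 CPM (SD, n = 4) to 689 ± 162 CPM (SD, n = 3), a 14.1-fold difference (log2 fold change 3.82, standard error 0.17, adjusted p = 1.21e-10, edgeR). CYP26A1, the other CYP26 enzyme with counts, was close to the floor, with between 2 and 22 counts per library. It measured 4.97, 6.91 and 4.74 CPM with ATRA, 5.92 and 1.59 CPM with vehicle and 2.13 and 0.48 CPM with no vehicle, so vehicle 1 lay among the ATRA libraries. The estimate of 1.22 on the log2 scale did not pass (standard error 0.58, adjusted p = 0.387 by edgeR), and the depth could not show a smaller change. CYP26C1 had no count in any library.

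DHRS3, the reductase that returns retinaldehyde to retinol, was measured at 209.9, 194 and 267 CPM with ATRA, 72.4 and 71.0 CPM with vehicle and 64.8 and 66.2 CPM with no vehicle. All ATRA libraries were higher, and the 4 others lay close together. The rise was 3.26-fold (log2 fold change 1.71, standard error 0.13, adjusted p = 1.81e-07, edgeR), from 68.6 ± 3.68 CPM (SD, n = 4) to 224 ± 38.7 CPM (SD, n = 3). STRA6, the membrane receptor that takes up retinol from its carrier in blood, had 198, 166 and 204 CPM with ATRA, 68.6 and 67.1 CPM with vehicle and 41.0 and 48.9 CPM with no vehicle. The ATRA libraries again lay above all others, and the vehicle libraries above those with no vehicle. STRA6 rose 3.37-fold against all 4 libraries (log2 fold change 1.75, standard error 0.16, adjusted p = 2.63e-06, edgeR) and by a log2 fold change of 1.48 against vehicle alone (adjusted p = 9.41e-05, edgeR).

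Of the 30 genes listed for retinoid uptake, storage, synthesis and breakdown, 21 had enough counts to be tested. Of these, 8 were called (38.1%, against 2.61% of all genes), 6 higher and 2 lower, with a median log2 fold change of 0.11 over the 21. Besides CYP26B1, DHRS3 and STRA6, the higher genes were CYP2S1, CYP24A1 and ALDH1A3. CYP2S1, a P450 of epithelia that can act on retinoids, had 263, 182 and 273 CPM with ATRA, 110.0 and 107 CPM with vehicle and 109 and 129.9 CPM with no vehicle (log2 fold change 1.07, standard error 0.14, adjusted p = 0.000107, edgeR). CYP24A1 is the hydroxylase that inactivates vitamin D, so the counts of this list include a gene that is not of retinoid metabolism. It was measured at 2060.3, 2023 and 2354 CPM with ATRA, 979 and 1065 CPM with vehicle and 1062 and 1311 CPM with no vehicle (log2 fold change 0.96, standard error 0.12, adjusted p = 0.000129, edgeR). ALDH1A3, which oxidises retinaldehyde to retinoic acid, had 50.4, 58.1 and 61.1 CPM with ATRA, 38.3 and 34.5 CPM with vehicle and 27.3 and 28.5 CPM with no vehicle. In all 3 genes the ATRA libraries lay above every other library, and the groups without ATRA were ordered differently: vehicle was above no vehicle for ALDH1A3 and not for the others. The log2 fold change of ALDH1A3 was 0.82 (adjusted p = 0.00693, edgeR), and against vehicle alone 0.64 (adjusted p = 0.151, edgeR), which did not pass.

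The 2 lower genes of this list were the aldo-keto reductases AKR1B10 and AKR1B1, both able to reduce retinaldehyde. AKR1B10 had 2433, 2046 and 2399 CPM with ATRA, 4034 and 4264 CPM with vehicle and 3473 and 3828 CPM with no vehicle (log2 fold change -0.77, standard error 0.12, adjusted p = 0.00108, edgeR). AKR1B1 had 701, 675 and 854 CPM with ATRA, 1520.1 and 1528 CPM with vehicle and 859 and 1125 CPM with no vehicle. For AKR1B1 the vehicle libraries stood well above those with no vehicle, and no vehicle 1 lay next to ATRA 3. Its log2 fold change was -0.76 against all 4 libraries (adjusted p = 0.0185, edgeR) and -1.04 against vehicle alone (adjusted p = 0.00208, edgeR). The call was lost without ATRA 1 (adjusted p = 0.115, edgeR), ATRA 2 (0.0581), vehicle 1 (0.096) or vehicle 2 (0.0756) and against no vehicle alone (0.299). DESeq2, run in place of edgeR, did not call AKR1B1 either (adjusted p = 0.0504). LRAT, which forms retinyl esters for storage, was hardly expressed, with at most 2 counts in any library. CRABP2, which carries retinoic acid to its receptor, did not pass the test (log2 fold change -0.36, standard error 0.72, adjusted p = 0.882, edgeR) at no more than 5.03 CPM in any library.

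**Figure D1:**
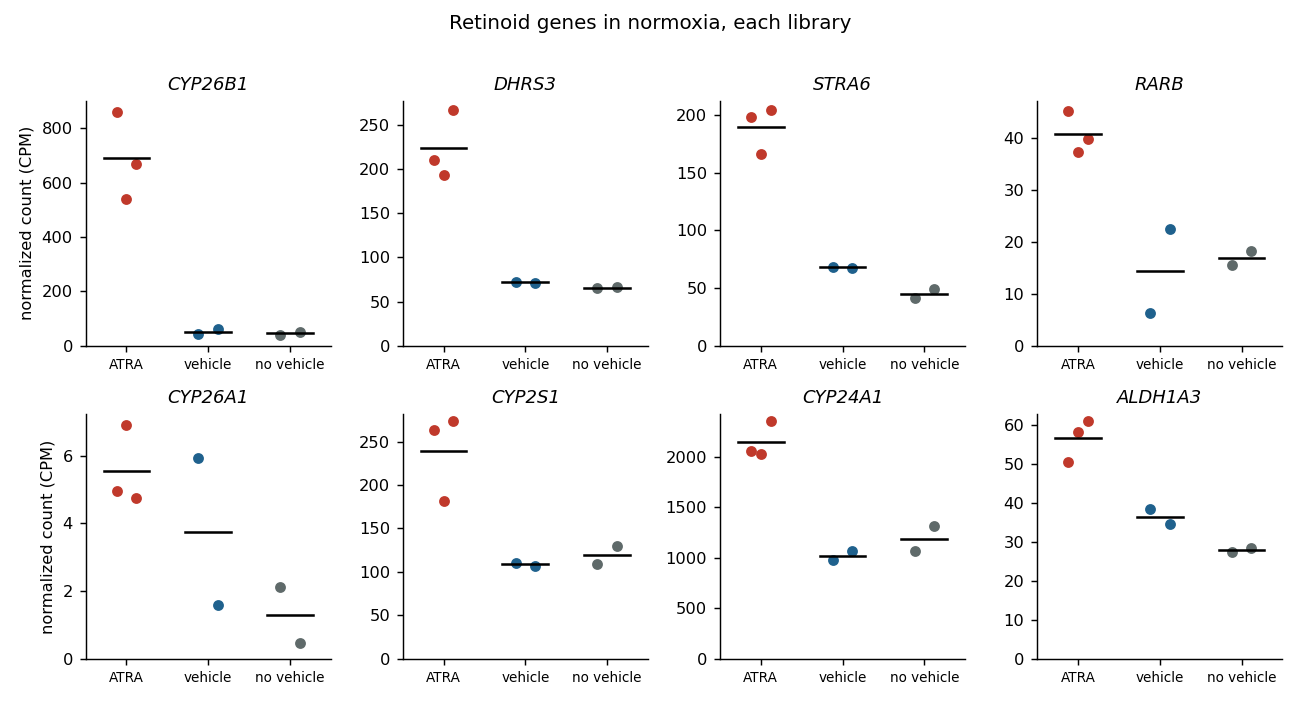
Normalized counts (CPM, linear axes from 0) of 8 genes, retinoid genes except for the vitamin D enzyme CYP24A1, in each of the 7 normoxia libraries, with a point per library and a bar at the mean of each group (ATRA, n = 3; vehicle, n = 2; no vehicle, n = 2). The 3 ATRA libraries lie above all others for each gene except CYP26A1, where vehicle 1, at 5.92 CPM, lies among the ATRA libraries. For CYP26B1, DHRS3 and STRA6 the choice of genes required that separation.

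Among receptors and coregulators, 12 of 13 listed genes were tested, with a median log2 fold change of 0.21. Of these, 3 were called (25.0%, against 2.61% of all genes), RARB and NRIP1 higher and NCOA3 lower. RARB encodes retinoic acid receptor beta, a receptor that is itself a classical target of retinoic acid. It was measured at 45.2, 37.4 and 39.8 CPM with ATRA, 6.27 and 22.5 CPM with vehicle and 15.5 and 18.2 CPM with no vehicle, so that the ATRA libraries were all higher and the vehicle pair spanned the no-vehicle pair. The rise was 2.54-fold (log2 fold change 1.34, standard error 0.26, adjusted p = 0.00647, edgeR). It did not pass without ATRA 1 (adjusted p = 0.0621, edgeR) or against vehicle alone (adjusted p = 0.0639, edgeR). The gene shares part of its position with TOP2B, which held 751% as many counts, and the sources used here do not say how reads in shared sequence were counted.

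NRIP1, a corepressor that binds receptors when ligand is present, had 165, 179.9 and 117 CPM with ATRA, 89.8 and 95.8 CPM with vehicle and 119 and 85.1 CPM with no vehicle. ATRA 3 lay below no vehicle 1, so the groups overlapped (log2 fold change 0.66, adjusted p = 0.0196, edgeR). The call was lost in 5 of the 7 fits that left out 1 library, those without ATRA 1, ATRA 2, vehicle 1, vehicle 2 or no vehicle 2 (adjusted p from 0.0626 to 0.126, edgeR). NCOA3, a coactivator of nuclear receptors, was measured at 253, 264 and 252 CPM with ATRA, 359.7 and 359 CPM with vehicle and 447 and 386 CPM with no vehicle, with all ATRA libraries lower (log2 fold change -0.60, standard error 0.11, adjusted p = 0.00353, edgeR). NCOA3 did not pass against vehicle alone (adjusted p = 0.0684, edgeR), so that none of the receptors and coregulators was called with that control, and NCOA3 alone was called against no vehicle or in the fit of 14 libraries. The other retinoic acid receptors, RARA and RARG, had log2 fold changes of 0.48 (adjusted p = 0.145) and 0.40 (adjusted p = 0.415) in the same edgeR test, and RXRG had no count in any library.

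Retinoic acid receptors are known to bind direct repeats of a 6-base motif (A or G, then G, then G or T, then TCA), and the form with 5 bases between the repeats, called DR5, is that of the best known responsive genes. RefSeq promoter windows, 250 bases before to 50 after each annotated start on GRCh38.p14, were searched for it on both strands, along with the repeats spaced by 1 and 2 bases. Among the genes tested, no promoter held more than 1 of the 3 spacings. A DR5 was found in 29 of 27305 genes with a window (0.106%). Among the genes called higher that had a window it was found in 2 of 194 (1.03%), and among the genes called lower in 0 of 85. The 2 higher genes were RARB and TRIM31, and CYP26A1 also held a match. These stretches of the 3 promoters are shown because they carry the match, which is in capitals, in genes described above or below, of which CYP26A1 was not called; each is given in the direction of its gene.

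RARB, chr3:25428170-25428262, forward strand, repeat from 53 to 37 bases before the start: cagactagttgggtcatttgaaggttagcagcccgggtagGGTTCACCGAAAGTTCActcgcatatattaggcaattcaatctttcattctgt

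CYP26A1, chr10:93073763-93073859, forward strand, repeat from 90 to 74 bases before the start: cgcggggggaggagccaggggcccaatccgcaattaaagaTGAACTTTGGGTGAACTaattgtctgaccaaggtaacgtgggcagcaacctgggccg

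TRIM31, chr6:30113234-30113330, reverse strand, repeat from 200 to 184 bases before the start: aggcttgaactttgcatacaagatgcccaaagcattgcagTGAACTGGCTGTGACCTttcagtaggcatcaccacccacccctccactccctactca

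In RARB the repeat reads along the gene, while in CYP26A1 and TRIM31 it is read on the opposite strand. The windows of CYP26B1 and TFPI2 held none of the 3 spacings, and no called gene held a repeat spaced by 1 or 2 bases. A match is a stretch of letters only, and no binding was measured in these cells.

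Beyond retinoid metabolism, 37 of 43 genes listed as raised by retinoic acid were tested. Of these, 19 were higher and 0 lower (51.4% called, against 2.61% of all genes), with a median log2 fold change of 0.83. In the fit of 14 libraries 11 were higher. Part of that list was drawn from the study's own comparison in hyperoxia, so it is not independent evidence of direction. The gene with the smallest p of all was TFPI2, an inhibitor of serine proteases in the extracellular matrix. It had 572, 543 and 508 CPM with ATRA, 97.2 and 94.0 CPM with vehicle and 94.8 and 92.5 CPM with no vehicle. The 4 libraries without ATRA lay within a few CPM of each other, and each ATRA library was over 5 times as high. The rise was 5.72-fold (log2 fold change 2.52, standard error 0.10, adjusted p = 4.76e-11, edgeR), from 94.6 ± 1.93 CPM (SD, n = 4) to 541 ± 32.1 CPM (SD, n = 3).

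IGFBP3, a secreted binding protein for insulin-like growth factors, rose 5.17-fold, with 472, 380.4 and 331 CPM in the ATRA libraries, 64.8 and 66.2 CPM with vehicle and 78.2 and 95.4 CPM with no vehicle (log2 fold change 2.37, standard error 0.14, adjusted p = 1.34e-08, edgeR). Every ATRA library was above every other, and the no-vehicle libraries were above the vehicle ones. TGM2, the tissue transglutaminase that cross-links proteins and is a long-known retinoic acid target, had 816, 549.6 and 562 CPM with ATRA, 275 and 249 CPM with vehicle and 241 and 300.4 CPM with no vehicle (log2 fold change 1.27, standard error 0.13, adjusted p = 1.43e-05, edgeR). ATRA 1 was the highest of all, and the lowest ATRA library was still well above the rest. ELF3, an epithelial transcription factor, was measured at 351, 336 and 409 CPM with ATRA, 153 and 208 CPM with vehicle and 155 and 201 CPM with no vehicle (log2 fold change 1.02, standard error 0.13, adjusted p = 8.6e-05, edgeR). LXN, a carboxypeptidase inhibitor, rose 3.24-fold to 80.3 ± 8.56 CPM (SD, n = 3; adjusted p = 2.63e-06, edgeR), although GFM1, which overlaps it, held 126% as many counts. Other higher members were RARRES1, named for its response to retinoic acid, with a log2 fold change of 2.41, the NAD-consuming enzyme CD38 with 1.35, the transcription factor ATOH8 with 2.02 and the glycosyltransferase GALNT12 with 1.66. An uncharacterised gene overlapping RARRES1 held 92.6% as many counts.

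The adhesion molecule CEACAM6 was measured at 481, 574 and 536 CPM with ATRA, 277 and 298 CPM with vehicle and 303 and 312 CPM with no vehicle. The ATRA libraries were all higher, and the other 4 lay within a narrow range (log2 fold change 0.83, standard error 0.10, adjusted p = 8.43e-05, edgeR). Another counted gene that overlaps CEACAM6 held 15.8% as many counts. The related CEACAM1 rose from 5.53 ± 3.35 CPM (SD, n = 4) to 16.4 ± 1.46 CPM (SD, n = 3), or by 1.59 on the log2 scale (adjusted p = 0.0196, edgeR). That call was lost without ATRA 1 (adjusted p = 0.109, edgeR), vehicle 1 (0.0681) or vehicle 2 (0.0766). These were the 2 called members of 4 CEACAM genes tested, and CEACAM5 (log2 fold change 1.29, adjusted p = 0.291, edgeR) did not pass. Against vehicle alone or no vehicle alone 1 of the 4 was called, and in the fit of 14 libraries none. Of 24 HOX genes tested, HOXB3 and HOXA3 were higher and none was lower (8.33% called, against 2.61% of all genes), with a median of 0.48. Without ATRA 2, 5 were higher, and against no vehicle alone and in the fit of 14 libraries 1 was. HOX genes set position along the body axis, and the 3′ members of their clusters are known to answer retinoic acid early in development. HOXB3 had 48.6, 41.1 and 48.2 CPM with ATRA, 25.1 and 21.1 CPM with vehicle and 19.5 and 27.3 CPM with no vehicle (log2 fold change 0.99, standard error 0.17, adjusted p = 0.00242, edgeR). HOXA3 rose to 32.2 ± 5.63 CPM (SD, n = 3) from 16.9 ± 2.50 CPM (SD, n = 4), with a log2 fold change of 0.93 (adjusted p = 0.0129, edgeR), and did not pass without ATRA 1 (adjusted p = 0.123) or vehicle 2 (0.0593). Antisense RNAs at the same positions held 21.1% as many counts as HOXB3 and 50.3% as many as HOXA3.

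Several of the genes with the smallest p belong to none of these groups. IFFO2, an intermediate filament family member, rose 4.01-fold, with 271, 239 and 241 CPM with ATRA, 68.6 and 65.5 CPM with vehicle and 55.9 and 60.2 CPM with no vehicle (adjusted p = 6.34e-09, edgeR). GPRC5B, an orphan receptor of a family raised by retinoic acid, had 231, 227 and 245 CPM with ATRA, 82.9 and 67.8 CPM with vehicle and 52.8 and 54.7 CPM with no vehicle (log2 fold change 1.87, standard error 0.14, adjusted p = 2.05e-07, edgeR), and IQCK, which overlaps it, held 32.2% as many counts. In both genes the groups were far apart, and the vehicle libraries lay above those with no vehicle. TRIM31, an E3 ubiquitin ligase, was nearly silent without ATRA: 2.44 and 3.54 CPM with vehicle and 2.32 and 3.36 CPM with no vehicle, against 28.8, 37.0 and 26.6 CPM with ATRA. Its 10.3-fold rise (log2 fold change 3.37, standard error 0.26, adjusted p = 4.02e-07, edgeR) rests on few counts in the libraries without ATRA, and an antisense gene held 17.8% as many counts. CAVIN2, a coat protein of caveolae, rose 2.43-fold to 137 ± 3.63 CPM (SD, n = 3; adjusted p = 3.28e-06, edgeR).

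**Figure D2:**
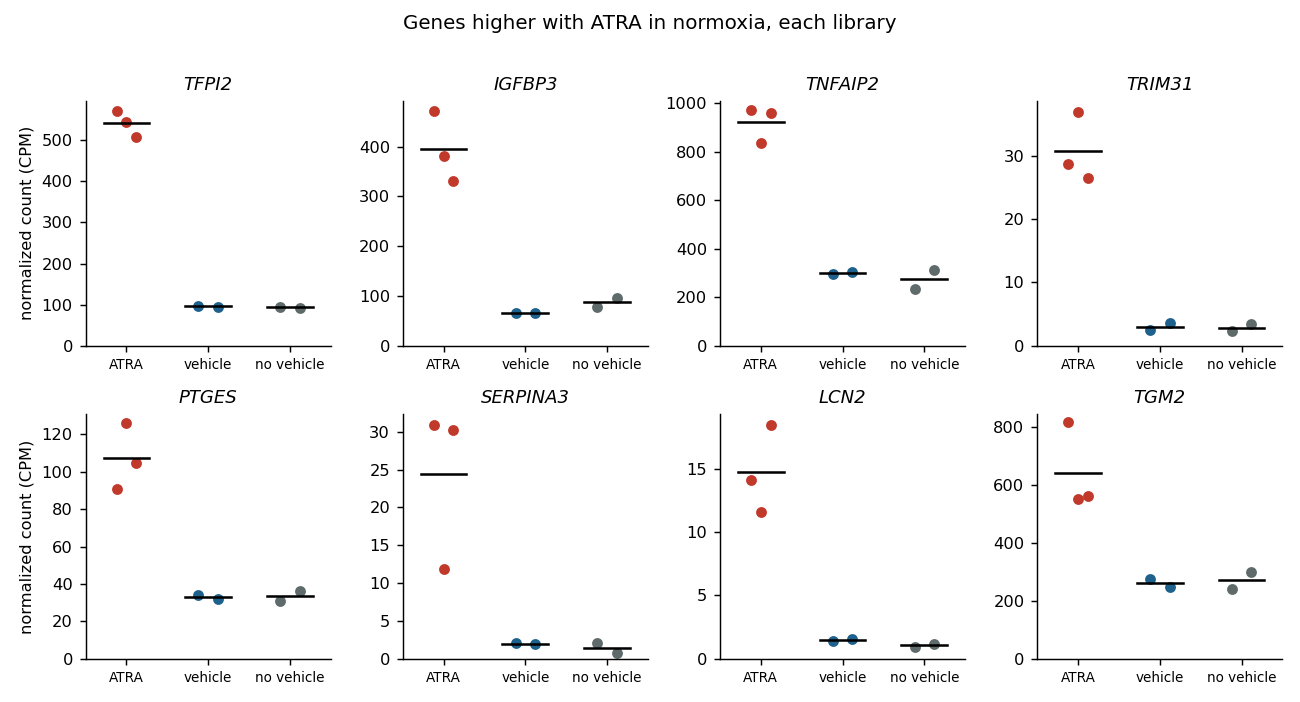
Normalized counts (CPM, linear axes from 0) of 8 genes called higher with ATRA, in each of the 7 normoxia libraries, with a bar at each group's mean (ATRA, n = 3; vehicle, n = 2; no vehicle, n = 2). The ATRA libraries lie above all others in each panel, from 572, 543 and 508 CPM for TFPI2 to 14.1, 11.6 and 18.4 CPM for LCN2, and ATRA 2 is the lowest of them for SERPINA3. For TFPI2, IGFBP3, TNFAIP2, TRIM31 and PTGES the choice of genes required that separation.

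Complement and acute phase genes formed the group with the largest share of called members among lists of over 4 tested genes. The lists were chosen with earlier results of these data known, so this rank is not independent evidence. Of 34 listed, 19 were tested, and 12 were higher and 1 lower (68.4% called, against 2.61% of all genes), with a median log2 fold change of 0.72. SERPINA3, the inhibitor of chymotrypsin-like proteases, had 30.8, 11.9 and 30.3 CPM with ATRA, 2.09 and 1.95 CPM with vehicle and 2.13 and 0.719 CPM with no vehicle. LCN2, which binds bacterial iron carriers, had 14.1, 11.6 and 18.4 CPM with ATRA, 1.39 and 1.59 CPM with vehicle and 0.967 and 1.20 CPM with no vehicle. Both rose from levels close to the detection floor, by log2 fold changes of 3.80 (standard error 0.39, adjusted p = 1.12e-05) and 3.49 (standard error 0.38, adjusted p = 1.93e-05) by edgeR. C3, the central complement protein, was measured at 52.5, 28.6 and 30.6 CPM with ATRA, 9.40 and 15.6 CPM with vehicle and 10.1 and 13.9 CPM with no vehicle (log2 fold change 1.59, standard error 0.25, adjusted p = 0.000786, edgeR). The complement proteases C1R and C1S, which start the classical pathway, rose together, by 0.94 (adjusted p = 0.00575) and 0.77 (adjusted p = 0.00793, edgeR), and CD55, which protects cells from complement, by 0.72 (adjusted p = 0.00391, edgeR). C5 was the lower member, at 71.6, 102 and 88.0 CPM with ATRA against 125 and 123 CPM with vehicle and 125 and 132 CPM with no vehicle (log2 fold change -0.53, adjusted p = 0.0293, edgeR), and it did not pass without ATRA 1, ATRA 3, vehicle 1, vehicle 2 or no vehicle 2.

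All 3 fibrinogen chains were higher. FGB had 120.2, 87.0 and 106 CPM with ATRA, 41.8 and 44.1 CPM with vehicle and 56.7 and 54.2 CPM with no vehicle (log2 fold change 1.08, standard error 0.15, adjusted p = 0.000209, edgeR), FGA changed by 0.67, adjusted p = 0.00246, and FGG by 0.82, adjusted p = 0.0207, on the log2 scale. The metal carriers CP and TF also passed, by 1.16, adjusted p = 0.00123 and 3.13, adjusted p = 0.0022 on the log2 scale (edgeR), but HPS3 held 142% as many counts as CP at the same position and SRPRB 1290% as many as TF. The number of higher members was 7 without ATRA 1, 7 against vehicle alone and 6 in the fit of 14 libraries, and their median stayed between 0.64 and 0.74 in every alternative run. Among 8 leukocyte markers, PTPRC, CD3E and TYROBP had no count in any library, LYZ and FCER1G at most 2, and ITGAM and CD14 were tested. CD14 was higher with ATRA (10.5, 15.4 and 13.7 CPM, against 1.39 and 3.01 CPM with vehicle and 1.93 and 5.51 CPM with no vehicle, adjusted p = 0.00478, edgeR), and with it the summed level of the 8 markers, from 3.48 to 9.59 CPM without ATRA to 14.9 to 17.4 CPM with it. CD14 overlaps TMCO6, which held 439% as many counts.

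Of 33 interferon-stimulated genes tested, 5 were higher and 0 lower (15.2% called, against 2.61% of all genes), with a median of 0.48. PLSCR1, a scramblase with antiviral activity, had 63.8, 85.1 and 68.0 CPM with ATRA, 24.0 and 25.7 CPM with vehicle and 31.3 and 35.2 CPM with no vehicle (log2 fold change 1.30, standard error 0.17, adjusted p = 0.000115, edgeR). The immunoproteasome subunits PSMB9 and PSMB8, which trim peptides for class I antigen presentation, rose to 16.3 ± 2.41 and 23.2 ± 4.32 CPM (SD, n = 3) from 4.86 ± 0.823 and 8.16 ± 3.33 CPM (SD, n = 4). Their log2 fold changes were 1.76 (adjusted p = 0.00121) and 1.53 (adjusted p = 0.00826) by edgeR, the latter with an antisense gene that held 111% as many counts. The transcription factors IRF1 and STAT2 rose by 1.04 (adjusted p = 0.0112) and 0.72 (adjusted p = 0.0387, edgeR). IRF1 did not pass without ATRA 1 (adjusted p = 0.074, edgeR), and without that library 3 members were called in place of 5. Against vehicle alone 2 members were called, and neither IRF1 (adjusted p = 0.178) nor PSMB8 (log2 fold change 1.22, adjusted p = 0.175, edgeR) passed. In the fit of 14 libraries 1 member was called, with an adjusted p of 0.452 for PSMB9 and 0.32 for PSMB8 (edgeR). For PSMB9 that fit gave a log2 fold change of 1.74 with a standard error of 0.64. In the 7 libraries these were 1.76 and 0.29. ISG15, MX1 and OASL had too few counts to be tested, and IFIT2 had a log2 fold change of 1.85, adjusted p = 0.0743 (edgeR).

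NF-kB subunits, their feedback genes, chemokines and cytokines showed 3 higher and 1 lower among 28 tested (14.3% called, against 2.61% of all genes). Their median was 0.28. TNFAIP2, a gene raised by tumour necrosis factor and by retinoic acid, had 972, 837 and 960.0 CPM with ATRA, 296 and 304 CPM with vehicle and 233 and 312 CPM with no vehicle. The ATRA libraries were far above the others (log2 fold change 1.69, standard error 0.12, adjusted p = 1.08e-07, edgeR). CSF1, the macrophage growth factor, was ordered in all 3 groups, at 113, 124 and 115 CPM with ATRA, 75.2 and 67.1 CPM with vehicle and 43.1 and 46.5 CPM with no vehicle, a log2 fold change of 1.02 against all 4 (adjusted p = 0.00117) and 0.72 against vehicle alone (adjusted p = 0.0214, edgeR). TNFAIP3, the ubiquitin editor that ends NF-kB signalling, rose to 9.59 ± 1.69 CPM (SD, n = 3; log2 fold change 1.46, adjusted p = 0.0332, edgeR), a call that was kept in only 1 of the 7 fits that left out a library, that without ATRA 3, and the others gave adjusted p from 0.0534 to 0.158. NAMPT, the rate-limiting enzyme of NAD salvage, which is also secreted, was lower: 77.4, 75.6 and 68.5 CPM with ATRA, 143 and 143 CPM with vehicle and 185 and 168 CPM with no vehicle (log2 fold change -1.11, standard error 0.13, adjusted p = 4.2e-05, edgeR). The cytokines CXCL8, IL6 and TNF were among the 17 listed genes with too few counts to be tested.

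Matrix and mesenchymal genes had 9 higher and 2 lower members among 45 tested (24.4% called, against 2.61% of all genes), with a median of 0.11. TGFBI, a matrix protein raised by TGF-beta, was measured at 1315, 1211 and 1089.8 CPM with ATRA, 647 and 561 CPM with vehicle and 593 and 548.8 CPM with no vehicle (log2 fold change 1.04, standard error 0.11, adjusted p = 1.72e-05, edgeR). The basement membrane collagen IV chains COL4A2 and COL4A1 rose, by 0.98 (adjusted p = 0.000174) and 0.79 on the log2 scale (edgeR). MMP7, the matrilysin of epithelia, had 40.3, 42.7 and 46.1 CPM with ATRA, 20.5 and 17.5 CPM with vehicle and 21.5 and 21.3 CPM with no vehicle (log2 fold change 1.09, standard error 0.17, adjusted p = 0.000786, edgeR). The laminin chain LAMA3 was higher (log2 fold change 0.69, adjusted p = 0.00157, edgeR). THBS1, a matrix glycoprotein that activates TGF-beta, was a lower member (-0.54, adjusted p = 0.0206, edgeR). Without ATRA 1, 5 members were higher and 1 lower, against vehicle alone 4 and 0, against no vehicle alone 6 and 1, and in the fit of 14 libraries 2 and 0. Tight junction and epithelial genes had 2 higher and 0 lower among 29 tested (6.90% called, against 2.61% of all genes). The 2 were KRT80 (0.67, adjusted p = 0.00353) and the junction scaffold TJP3 (1.09, adjusted p = 0.0288) on the log2 scale (edgeR). Without ATRA 1 neither passed (adjusted p = 0.052 and 0.122), and TJP3 also failed without ATRA 3 (0.0679), vehicle 2 (0.109), no vehicle 1 (0.064) or no vehicle 2 (0.0694), with APBA3 holding 75.6% as many counts at its position. Without ATRA 2, 4 members were higher, and against vehicle alone none was.

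Growth factor and receptor genes had 7 higher and 2 lower among 51 tested (17.6% called, against 2.61% of all genes), with a median of 0.11. Against vehicle alone and in the fit of 14 libraries, 3 were higher and 1 lower. IGFBP5, a binding protein like IGFBP3, had 18.8, 15.1 and 17.1 CPM with ATRA, 3.48 and 5.14 CPM with vehicle and 3.10 and 4.80 CPM with no vehicle (log2 fold change 2.02, standard error 0.29, adjusted p = 0.000395, edgeR). IGF2, the ligand, was lower, with 18.8, 5.96 and 12.9 CPM with ATRA, 38.7 and 40.9 CPM with vehicle and 50.9 and 26.9 CPM with no vehicle (log2 fold change -1.63, standard error 0.29, adjusted p = 0.00293, edgeR). For IGF2 no ATRA library reached the lowest library without ATRA, but the readthrough gene INS-IGF2 held 97.2% as many counts, and reads of the pair cannot be told apart. SMAD3, which carries TGF-beta signals, rose from 379 ± 12.8 CPM (SD, n = 4) to 609.5 ± 22.8 CPM (SD, n = 3; adjusted p = 0.000334, edgeR). PDGFB, a mitogen for mesenchymal cells, rose by 1.71, adjusted p = 0.00445 and BAMBI, a decoy receptor that damps TGF-beta, by 0.85, adjusted p = 0.0176, while the receptor NOTCH3 fell by 1.23 (adjusted p = 0.0173), all on the log2 scale by edgeR.

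In the Wnt pathway 36 of 60 listed genes were tested, with a median of 0.04. Of these, 4 were higher and 3 lower (19.4% called, against 2.61% of all genes). Changed members included secreted regulators in both directions. SFRP4, which binds Wnt ligands outside the cell, had 49.4, 34.5 and 41.9 CPM with ATRA, 8.36 and 15.8 CPM with vehicle and 6.19 and 8.39 CPM with no vehicle (log2 fold change 2.09, standard error 0.26, adjusted p = 9.19e-05, edgeR). DKK1, which blocks the Wnt coreceptor, was lower, with 62.5, 68.4 and 78.2 CPM with ATRA, 129.9 and 139 CPM with vehicle and 154 and 189.6 CPM with no vehicle (log2 fold change -1.14, standard error 0.14, adjusted p = 0.000107, edgeR). RSPO3, an amplifier of Wnt signals, had 65.3, 61.2 and 50.8 CPM with ATRA, 111 and 113 CPM with vehicle and 154 and 118 CPM with no vehicle (log2 fold change -1.08, standard error 0.15, adjusted p = 0.000201, edgeR). Groups did not overlap for any of these 3 genes, which for DKK1 and RSPO3 the choice of genes required. LGR4, a receptor for R-spondins, fell by 0.42 on the log2 scale (adjusted p = 0.0387, edgeR). The nuclear regulators TLE3 and TCF7L1, both repressors of Wnt targets, rose by 0.72 (adjusted p = 0.0196) and 1.09 (adjusted p = 0.042) on the log2 scale (edgeR). DACT2, an inhibitor that acts inside the cell, rose to 9.35 ± 1.41 CPM (SD, n = 3) from 1.25 ± 1.02 CPM (SD, n = 4), with a log2 fold change of 2.80 (adjusted p = 0.00456, edgeR). Vehicle 1 and no vehicle 1 held 1 and 2 counts of DACT2, under the floor of 3 counts. DACT2 did not pass without ATRA 1 (adjusted p = 0.0511, edgeR), and in that fit 1 member was higher and 2 lower. With vehicle 1, vehicle 2 or ATRA 3 left out, 2 were higher and 2 lower, as against vehicle alone, and against no vehicle alone or in the fit of 14 libraries 1 was higher and 2 lower.

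Enzymes of prostaglandin metabolism were called in both directions. PTGES, the last enzyme of prostaglandin E2 synthesis, rose 3.21-fold, with 91.0, 126 and 105 CPM with ATRA, 34.1 and 32.1 CPM with vehicle and 31.0 and 36.4 CPM with no vehicle (log2 fold change 1.68, standard error 0.14, adjusted p = 1.18e-06, edgeR). HPGD, which starts the breakdown of prostaglandins, was 2.04-fold lower, with 36.3, 44.3 and 37.1 CPM with ATRA, 76.6 and 81.1 CPM with vehicle and 80.7 and 80.3 CPM with no vehicle (log2 fold change -1.03, standard error 0.14, adjusted p = 0.000165, edgeR). PTGR1, a reductase of the same breakdown route, was also lower, at 156 ± 6.04 CPM (SD, n = 3) against 266 ± 15.5 CPM (SD, n = 4; adjusted p = 0.000201, edgeR). PTGS2, the inducible cyclooxygenase upstream of PTGES, went the other way from PTGES, with 28.5, 19.8 and 33.7 CPM with ATRA, 43.5 and 54.7 CPM with vehicle and 46.4 and 67.1 CPM with no vehicle (log2 fold change -0.95, adjusted p = 0.011, edgeR), and did not pass without ATRA 1 (adjusted p = 0.0598), against vehicle alone (0.126) or in the fit of 14 libraries (0.487). In all, 1 of 14 tested eicosanoid genes was higher and 4 lower (35.7% called, against 2.61% of all genes). Without ATRA 1, 2 were lower, and in the fit of 14 libraries 0 were higher and 2 lower. The fourth lower gene was AKR1C1, a reductase of steroids and prostaglandins (-0.50, adjusted p = 0.0309 on the log2 scale, edgeR). AKR1C1 did not pass without ATRA 1, ATRA 2, vehicle 1, vehicle 2 or no vehicle 2 (adjusted p from 0.0685 to 0.179). Among 18 P450 genes and the vitamin D receptor tested together, CYP26B1, CYP2S1 and CYP24A1 were higher and CYP4F3, which oxidises leukotriene B4, lower (-0.68, adjusted p = 0.0259 on the log2 scale, edgeR). These calls made up 22.2% of that list, against 2.61% of all genes. The CYP4F3 call was lost in 6 of the 7 fits that left out a library, the exception being that without no vehicle 1 (adjusted p in the 6 from 0.0532 to 0.109).

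Lipid synthesis genes had the most lower members of all the lists, which were chosen with earlier results of these data known. All 32 listed were tested, and 10 were lower and 0 higher (31.2% called, against 0.811% of all genes called lower), with a median log2 fold change of -0.37 and a value below 0 for 30 of the 32. FASN, the fatty acid synthase, had 507, 357 and 491 CPM with ATRA, 952 and 1026 CPM with vehicle and 673 and 981 CPM with no vehicle (log2 fold change -1.01, standard error 0.15, adjusted p = 0.000659, edgeR). HMGCS1, an early enzyme of cholesterol synthesis, had 94.1, 83.5 and 81.4 CPM with ATRA, 144 and 157 CPM with vehicle and 164 and 142 CPM with no vehicle (log2 fold change -0.82, standard error 0.12, adjusted p = 0.000348, edgeR). In both genes no ATRA library overlapped the others, which for HMGCS1 the choice of genes required. Other lower members were the cholesterol enzymes FDFT1 (-0.66), IDI1 (-0.84) and SQLE (-0.64), the sterol sensor partner INSIG1 (-0.63), the desaturase FADS2 (-0.51) and LPIN1 (-0.56), which acts in triglyceride synthesis, all as log2 fold changes. WDR37 held 28.6% as many counts as IDI1 at its position, and FADS1 held 55.1% as many as FADS2. The number of lower members was 4 without ATRA 1, 5 without vehicle 2, 5 without no vehicle 2, 6 without vehicle 1 and 6 without ATRA 3, and it was 5 against vehicle alone, 3 against no vehicle alone and 5 in the fit of 14 libraries, with a median that stayed between -0.43 and -0.34.

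Of 33 NRF2 targets and oxidant defence genes tested, 5 were lower and 0 higher (15.2% called, against 2.61% of all genes), with a median of -0.19. SRXN1, which restores oxidised peroxiredoxins, had 240.5, 234 and 229 CPM with ATRA, 387 and 373 CPM with vehicle and 361 and 379 CPM with no vehicle, a narrow spread within each group (log2 fold change -0.68, standard error 0.10, adjusted p = 0.000407, edgeR). GCLC, the rate-limiting enzyme of glutathione synthesis, had 119, 166 and 143 CPM with ATRA, 219.7 and 220.3 CPM with vehicle and 255 and 217 CPM with no vehicle (log2 fold change -0.68, standard error 0.12, adjusted p = 0.00348, edgeR). ME1, a source of NADPH, fell by 0.55 on the log2 scale (adjusted p = 0.00979, edgeR), a call lost without ATRA 1 (0.0873) or ATRA 3 (0.0606). AKR1B10 and AKR1C1, described above, were the other lower members, and 3 were lower without ATRA 1 or against no vehicle alone (8 by DESeq2). ALDH3A1, an aldehyde dehydrogenase abundant in this line, was also lower, at 827, 766 and 958 CPM with ATRA, 1574 and 1816 CPM with vehicle and 1196 and 1656 CPM with no vehicle (log2 fold change -0.88, standard error 0.14, adjusted p = 0.00117, edgeR). With it, 3 of the 9 tested A549 identity markers were lower with ATRA (33.3% called, against 2.61% of all genes).

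TRIB3, a pseudokinase of the integrated stress response, was 2.23-fold lower, with 52.0, 49.3 and 46.1 CPM with ATRA, 125 and 125 CPM with vehicle and 84.2 and 104 CPM with no vehicle (log2 fold change -1.15, standard error 0.15, adjusted p = 0.000152, edgeR). PSAT1, of serine synthesis, was the other lower gene of 28 tested in that list (-0.46, adjusted p = 0.0377 on the log2 scale, edgeR), and its call was lost without ATRA 1, ATRA 3, vehicle 1, vehicle 2 or no vehicle 1 (adjusted p from 0.0569 to 0.171). None was higher, 7.14% of the genes tested in that list were called (against 2.61% of all genes), and the median was -0.23. UNC13A, a vesicle priming protein best known from nerve endings, was lowered 4.38-fold, with 10.7, 7.53 and 12.9 CPM with ATRA, 50.8 and 48.7 CPM with vehicle and 43.7 and 40.8 CPM with no vehicle (log2 fold change -2.13, standard error 0.21, adjusted p = 7.02e-06, edgeR). KYNU, an enzyme of tryptophan breakdown, had 101, 131 and 107 CPM with ATRA, 247 and 213 CPM with vehicle and 297 and 232 CPM with no vehicle (log2 fold change -1.13, standard error 0.13, adjusted p = 5.14e-05, edgeR). The groups were separate in TRIB3, UNC13A and KYNU alike, which the choice of these genes required. ST6GAL2, a sialyltransferase, and the imprinted gene PEG10 were lower by log2 fold changes of -1.40 (adjusted p = 1.41e-05) and -0.95 (adjusted p = 0.000117, edgeR).

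**Figure D3:**
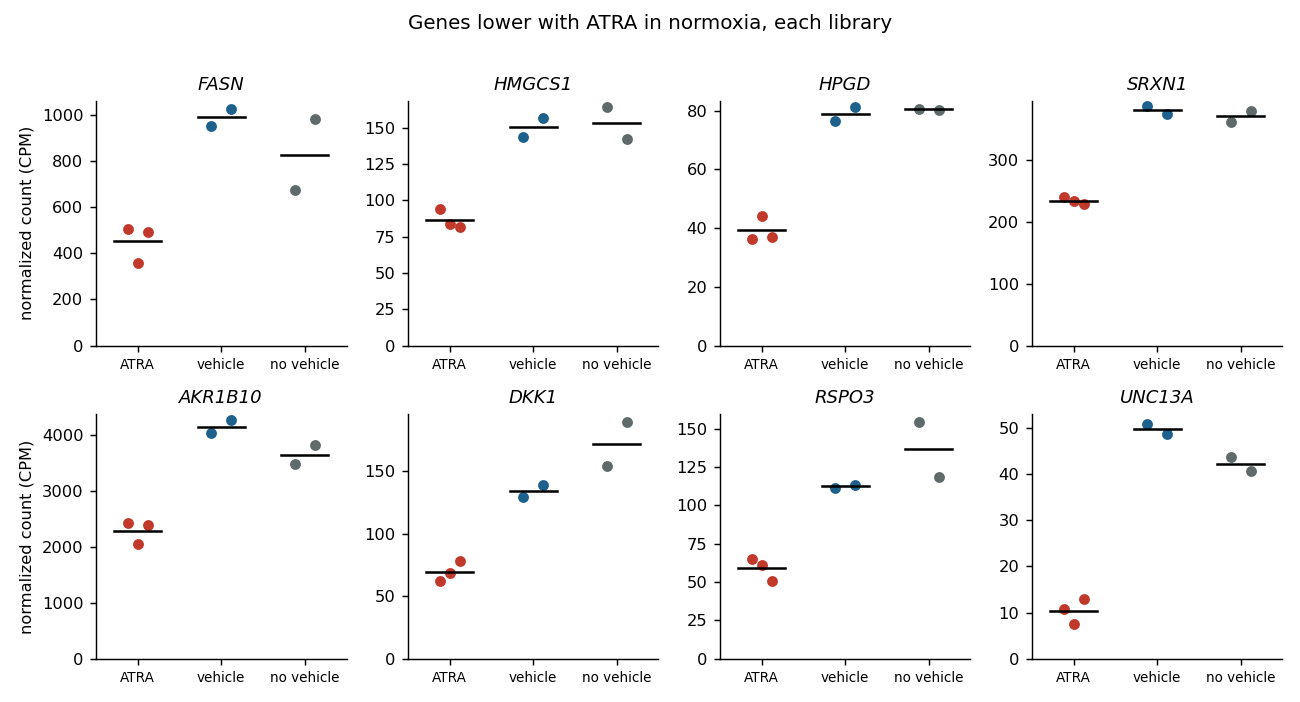
Normalized counts (CPM, linear axes from 0) of 8 genes called lower with ATRA, in each of the 7 normoxia libraries, with a bar at each group's mean (ATRA, n = 3; vehicle, n = 2; no vehicle, n = 2). The ATRA libraries lie below all others in each panel, and no vehicle 1 is the lowest of the libraries without ATRA for FASN. For HMGCS1, HPGD, DKK1, RSPO3 and UNC13A the choice of genes required that separation.

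Of 43 cell cycle genes tested, 1 was lower and 0 higher, with a median of -0.04, and this share of 2.33% was close to the 2.61% called among all genes. The lower gene was AURKA, a kinase of the mitotic spindle, at 87.6, 92.6 and 79.8 CPM with ATRA, 123 and 122 CPM with vehicle and 142 and 136 CPM with no vehicle (log2 fold change -0.60, adjusted p = 0.00735, edgeR), and it did not pass without ATRA 3 (adjusted p = 0.0523), against vehicle alone (0.114) or in the fit of 14 libraries (0.28). CCND3, a D-type cyclin outside that list, was lower, with 171, 160.1 and 199.6 CPM with ATRA, 333 and 352 CPM with vehicle and 259 and 383 CPM with no vehicle (log2 fold change -0.91, standard error 0.13, adjusted p = 0.000441, edgeR). Of 20 markers of alveolar type I and type II cells 7 were tested and none was called, with a median of -0.14. Markers of endothelial cells were too low to be tested, and of 8 fibroblast markers the 2 tested, COL1A1 and THY1, were not called.

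**Figure D4:**
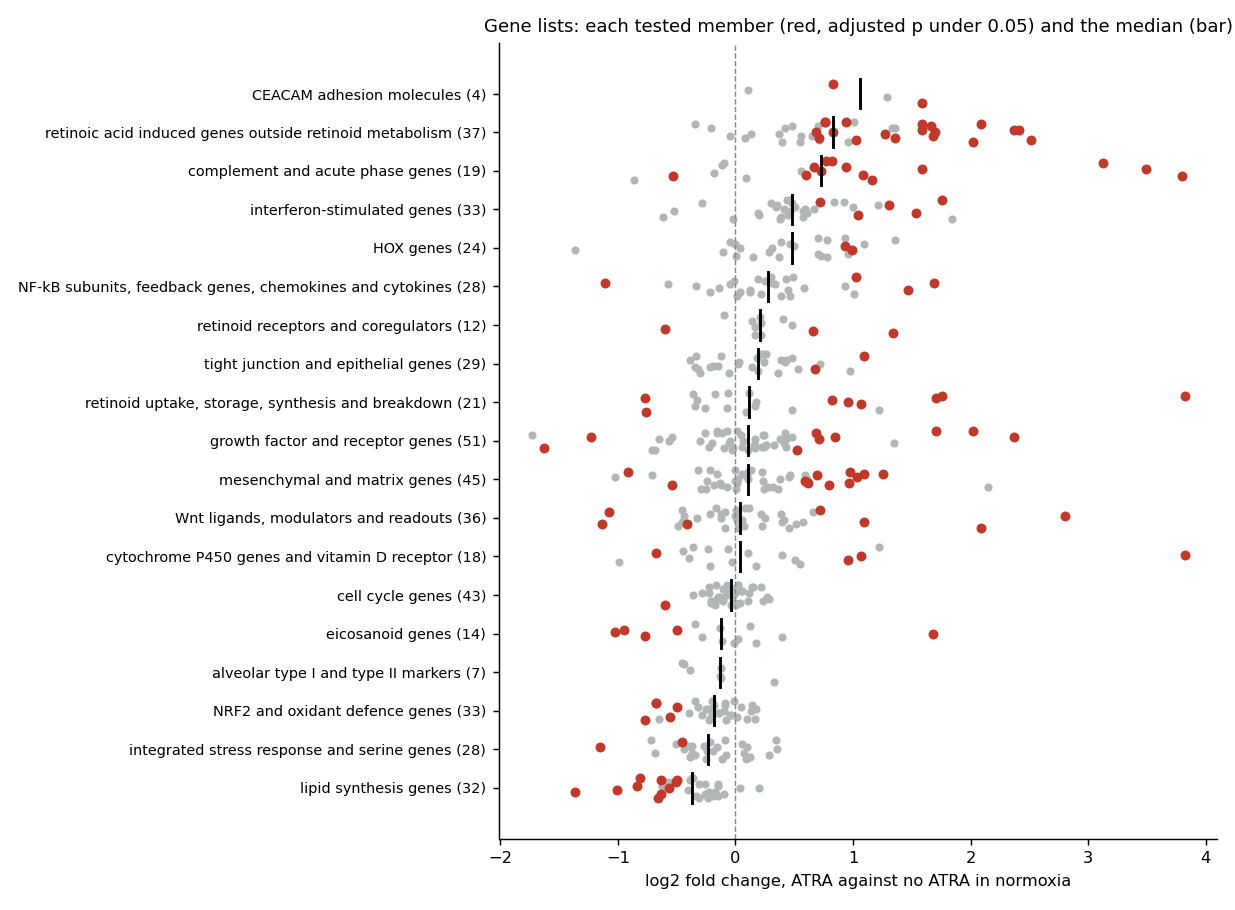
Log2 fold change (ATRA against no ATRA in normoxia) of each tested member of 19 gene lists, with the number tested in brackets, called members in red, others in grey and a bar at the median. The CEACAM genes, of which 4 were tested, have the highest median, 1.06. Retinoic acid induced genes and complement genes have medians of 0.83 and 0.72, and lipid synthesis genes have the lowest, -0.37.

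Vehicle against no vehicle gave 0 of 14338 genes (0%) at the adjusted threshold by edgeR and 1 by DESeq2. At an unadjusted p under 0.05, edgeR gave 408 (2.85%). The labels give a pretreatment time for the vehicle libraries and none for those with no vehicle. Ethanol and that pretreatment period therefore cannot be told apart here. With 2 libraries against 2, and no simulated test of that size, the 0 does not show that vehicle had no effect. The 4 genes with the smallest p were the mitochondrial tRNA gene TRNP (log2 fold change -0.68, unadjusted p = 0.000173), VSIR (0.87, 0.000422), TRND (-0.92, 0.000604) and CSF1 (0.66, 0.000985), where a positive value is higher with vehicle (edgeR). With only vehicle as the control, in a fit of the same 7 libraries, ATRA changed 164 genes (1.14%), 119 higher (0.830%) and 45 lower (0.314%), and with only no vehicle as the control 167 (1.16%). Of the 164, 160 were among the 360, which is 97.6% of the shorter list and 44.4% of the longer. The vehicle-only count was 82 without ATRA 1, 22 without vehicle 1 and 35 without vehicle 2, where the lone vehicle library is assumed to vary like the other groups. Among the named genes, NCOA3, RARB, ALDH1A3, NRIP1, CEACAM1, DACT2, AURKA, TNFAIP3, PSMB8, IRF1, KRT80, TJP3, PTGS2, CYP4F3, PSAT1, GCLC and ME1 were not called against vehicle alone (adjusted p from 0.0533 to 0.243, edgeR). RARB, AKR1B1, NRIP1, HOXA3, CEACAM1, DACT2, TNFAIP3, TJP3, CYP4F3, PSAT1, ME1, FDFT1, AKR1C1, CD14 and FGD6 were not called against no vehicle alone (adjusted p from 0.0651 to 0.299, edgeR). All 360 genes had the same sign against vehicle alone and against no vehicle alone. VSIR, an immune checkpoint ligand, was ordered over the 3 groups, at 88.9, 89.5 and 89.3 CPM with ATRA, 49.4 and 48.3 CPM with vehicle and 22.4 and 31.2 CPM with no vehicle. Its log2 fold change was 1.25 against all 4 libraries and 0.87 against vehicle alone (adjusted p = 0.0184, edgeR).

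The ATRA response was set beside that of cells kept in hyperoxia (95% oxygen) in a fit of 14 libraries, where the 7 hyperoxia libraries had the same 3, 2 and 2 treatments. No vehicle 1 of the hyperoxia libraries stood apart, at -198.9 on the first principal component of the 14 (the other 13 lay between -9.269 and 35.64) and with 12657 genes with a count, against at least 16465 in the others. In this fit 141 genes (0.919%) were called for ATRA in normoxia and 177 (1.15%) in hyperoxia, and 67 were called in both, all in the same direction. That is 47.5% of the normoxia calls and 37.9% of the hyperoxia calls. Among the named genes called in the 7 libraries, 25 were not called in this fit. PTGES, UNC13A, CEACAM6, FGB, MMP7, LAMA3 and IGFBP5 were among them, with adjusted p from 0.0778 to 0.4 (edgeR). Others lay outside that range, such as ALDH1A3 at 0.0501 and PSAT1 at 0.699 (edgeR). Of the 360 genes called in the 7 normoxia libraries, 320 (88.9%) had the same sign in hyperoxia, against 57.6% of all genes tested in both fits. CYP26B1, DHRS3 and STRA6 had log2 fold changes of 3.63, 1.62 and 1.42 in hyperoxia, beside 3.81, 1.69 and 1.77 in normoxia. The differences between these effects did not pass the test (adjusted p = 0.971, 0.979 and 0.918, edgeR).

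A difference between the ATRA effects passed for 6 of 15339 genes (0.0391%, with 5.55% at an unadjusted p under 0.05). IGFBP3 differed most clearly. In hyperoxia it had 511, 468 and 446 CPM with ATRA against 293, 272, 304 and 280.5 CPM in the vehicle and no-vehicle libraries, and in normoxia 471, 378 and 327 against 64.6, 66.3, 78.8 and 95.5 CPM. The ATRA libraries of both exposures lay close to each other, whereas every library without ATRA was far higher in hyperoxia than in normoxia. Its effect was 2.38 in normoxia and 0.73 in hyperoxia, a log2 difference of 1.65 with a standard error of 0.17 (adjusted p = 0.000991, edgeR), and it passed in all 17 alternatives. GPRC5B rose by 1.87 in normoxia and 0.81 in hyperoxia (difference 1.07, adjusted p = 0.0222), but with vehicle alone as control the difference was 0.63 (adjusted p = 0.357, edgeR), and it passed in 5 of the 17 alternatives. FGD6, an exchange factor for small GTPases, went up in normoxia (0.59) and had -0.40 in hyperoxia (difference 0.99, adjusted p = 0.0111). CCND3 fell in normoxia (-0.92) and had 0.39 in hyperoxia (difference -1.31, adjusted p = 0.0405), and this passed in 6 of the 17. For PLOD2, a collagen lysyl hydroxylase, and NFKB2, an NF-kB subunit, the normoxia effects of 0.25 and 0.32 did not pass, and the hyperoxia effects were -0.80 and -1.06 (differences 1.05 and 1.38, adjusted p = 0.0111 and 0.0222), and NFKB2 did not pass with vehicle alone as control (adjusted p = 0.13) and passed in 7 of the 17. The number of genes depended on single libraries: it was 20 without hyperoxia no vehicle 1, the library that stood apart, and 2362 without hyperoxia no vehicle 2, which left the former as the lone library of its group.

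**Figure D5:**
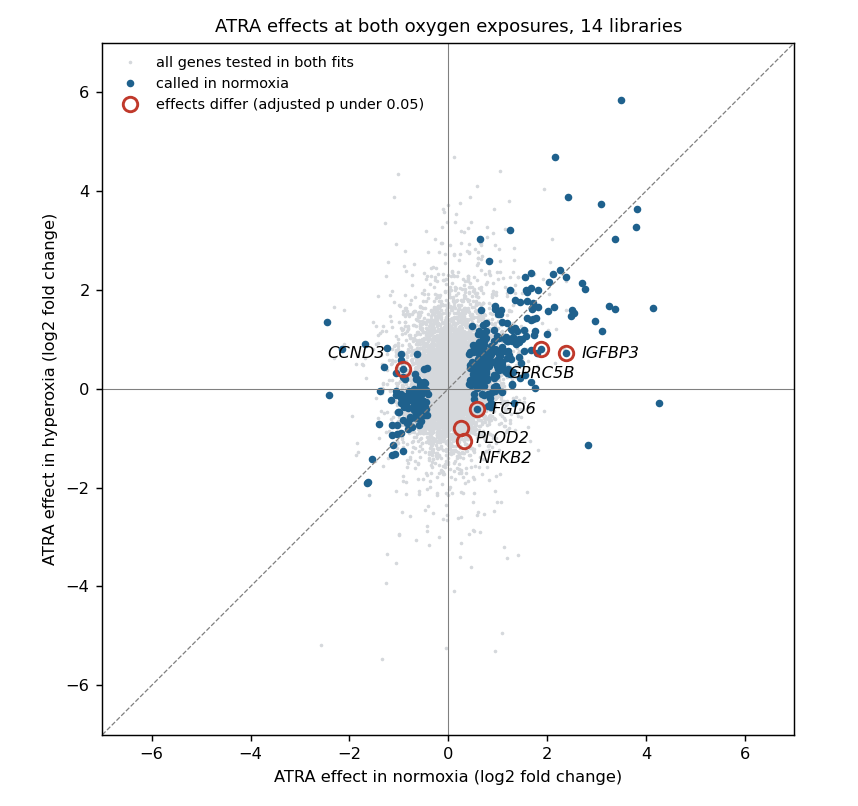
Log2 fold change for ATRA in normoxia (horizontal) and in hyperoxia (vertical) from the fit of 14 libraries, with genes called in the 7 normoxia libraries in blue, the 6 genes whose effects differ circled and named, and a dashed line of equal effects. Of the genes in blue, 88.9% have the same sign on both axes, and IGFBP3 lies below the line at 2.38 and 0.73.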

How the data were processed

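RNA-seq libraries of A549 cells were analysed from the deposited raw read counts, whole numbers per gene symbol for 43388 genes. The labels and the study name Trimmomatic 0.38, HISAT2, HTSeq and DESeq2 and the build hg38, and the annotation release, the strand and the treatment of overlapping genes in the counting are not given in the sources used here. Reads that HTSeq put on no gene made up 76.3% to 78.4% of the reads listed per library and were left out of library sizes. With the strand setting unknown, genes that overlap another are uncertain: TALAM1, antisense to MALAT1, held 187% to 198% as many counts as MALAT1 in each normoxia library.

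The analysis used edgeR 4.0.16 (R 4.3.3). The filterByExpr function, with a minimum count of 10 and a minimum total of 15, chose the genes, libraries were scaled by TMM, and a quasi-likelihood fit compared 3 ATRA libraries with 4 without ATRA (13802 genes). ATRA against vehicle and vehicle against no vehicle came from the same 7 libraries in 3 groups (14338 genes), and the comparison with hyperoxia from 14 libraries in 6 groups (15339 genes). p-values were adjusted by Benjamini-Hochberg over all genes tested, and genes under 0.05 were called. Every pair of libraries differed by more than sampling noise. One further library, whose treatment label names another experiment, was in no group.

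The members and gene lists were chosen with earlier results of these data known. Named genes are the 12 higher and 12 lower genes with the smallest p whose groups did not overlap and whose higher mean reached 10 CPM, called retinoid genes with a set of known targets, at most the 4 called genes with the smallest p of every other list, at most 6 genes whose effects differ between oxygen exposures and the 4 genes with the smallest p for vehicle. These 85 genes were matched to RefSeq positions on GRCh38.p14, and 25 of them overlap another counted gene. Other called members of the lists, and the untested or uncalled genes named, were chosen after their values were seen, and a few genes that meet these rules are not reported here. Promoter windows from RefSeq (GRCh38.p14) were found for 34 of 41 genes of the first 2 kinds.

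The alternatives were DESeq2 1.42.0, no filter on low counts, RLE size factors, 3 groups in place of 2, only vehicle or only no vehicle as control, all 14 libraries, and leaving out each library in turn. Tested on simulated counts for the 13802 genes with 3 libraries against 4, edgeR found 64% of the 2-fold and 92% of the 4-fold changes, with 5.45% false calls, and DESeq2 found the same shares, with 6.59% false calls. The figures were drawn with matplotlib.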

Additional observations from a re-analysis of the deposited data

Results flagged for a closer look

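In a few of the named genes, 1 of the 4 libraries without ATRA lay far from the other 3 (Dixon's ratio over its 95% critical value), which happened in 6 of the 84 groups looked at, where chance gives about 1 in 20. No vehicle 1 was the far library for RSPO3, at 154 CPM against 111 to 118 CPM in the others, for GCLC, at 255 CPM against 217 to 220 CPM, and for CYP4F3, at 40.6 CPM against 50.8 to 51.5 CPM. No vehicle 2 was the far library for CYP2S1, at 130 CPM against 107 to 110 CPM, and for SERPINA3, at 0.719 CPM against 1.95 to 2.13 CPM. Vehicle 2 was the far library for SMAD3, at 398 CPM against 370 to 375 CPM. For RSPO3, GCLC, CYP2S1, SERPINA3 and SMAD3 the call was the same without that library, and for CYP4F3 it was also kept without no vehicle 1.

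The ATRA effect differed between normoxia and hyperoxia by an interaction test for 6 genes, with a log2 difference (normoxia minus hyperoxia) of 1.65 for IGFBP3, 0.99 for FGD6, 1.05 for PLOD2, 1.07 for GPRC5B, 1.38 for NFKB2 and -1.31 for CCND3 (edgeR). Of 17 alternatives, IGFBP3 passed in 17, PLOD2 in 15, FGD6 in 14, NFKB2 in 7, CCND3 in 6 and GPRC5B in 5, with the same sign in every one.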

How the results depend on the processing

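With 84 named genes tested, the 75 called ones kept their direction in all 14 alternatives, and 44 of them stayed under the threshold in every one. The other 31 were lost in at least 1, and for called list members outside the named genes only the list counts were recomputed. Counts of higher and lower genes were 119 and 45 with vehicle alone as control, 123 and 44 with no vehicle alone and 93 and 48 in the fit of 14 libraries. With no filter on low counts 207 were lower. Of genes changed at least 2-fold, 46 were higher and 10 lower with 14 libraries, and 14 (vehicle alone), 15 (no vehicle alone) and 45 (no filter) were lower. Leaving out each library in turn gave 148 to 250 higher and 56 to 120 lower genes, and 86 to 109 and 17 to 30 at 2-fold. ATRA against vehicle gave 250 genes by DESeq2 on 5 libraries, 323 with no filter and 22 to 216 with a library left out. Vehicle against no vehicle gave 1 gene by DESeq2 and 0 with any library left out. The difference between oxygen exposures gave 60 genes by DESeq2, 50 with no filter, 21 with vehicle alone as control and 1 to 2362 with a library left out, the highest without hyperoxia no vehicle 2. The causes were not tested. The median log2 fold change of all genes stayed within 0.0102 of 0 in every scaling. No paired analysis was possible because the labels give library numbers and no replicate numbers that the groups share. Few counts limit the precision: CYP26A1, with 2 to 22 counts per library, had a standard error of 0.58 on the log2 scale.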
